A study of Mus musculus with 4 samples.

Results

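CC chemokines are small secreted proteins that attract leukocytes, and 7 of them were followed here across the cells of cytokine-treated mouse islets: Ccl2, Ccl3, Ccl4, Ccl5, Ccl7, Ccl20 and Ccl28. They were chosen by symbol, and each symbol named 1 of the 31053 gene rows of the deposited count tables. Islets from C57BL/6 mice (C57BL6/J in the published methods) were kept ex vivo without cytokine or were given interleukin-1β (IL-1β, labelled IL-1B), interferon-γ (IFN-γ, labelled IFNg) or both for 6 h, then dissociated and profiled by droplet single-cell RNA sequencing on the Chromium platform. Each of the 4 conditions is 1 library made from pooled islets of several mice, so no difference between conditions has a replicate check and none was tested. The library given both cytokines is called the combined library below. Cells were kept if they had between 200 and 4000 detected genes and no more than 12% of their counts from mitochondrial genes. This left 1521 untreated, 2018 IL-1β, 2122 IFN-γ and 1810 combined cells, with medians of 15454, 7462.5, 9615 and 11124 unique molecular identifiers (UMIs, each standing for 1 captured transcript) per cell.

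Chemokines of the CC family bind receptors of the CCR family on monocytes, macrophages, T cells and dendritic cells, and set up the gradients along which these cells move into tissue. IL-1β signals through its receptor to NF-κB, a transcription factor that drives many chemokine genes, whereas IFN-γ signals through its own receptor and JAK kinases to a separate set of genes. Ccl2 and Ccl7 attract monocytes through Ccr2, Ccl3 and Ccl4 attract macrophages and T cells, Ccl3 and Ccl5 both bind Ccr1, Ccl20 is the ligand of Ccr6, and Ccl28 is an epithelial chemokine that binds Ccr3 and Ccr10.

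In GRCm38 coordinates of the GENCODE annotation, 5 members lie on chromosome 11 in 2 groups. Ccl2 (ENSMUSG00000035385, chr11:82035571-82037453, plus strand) and Ccl7 (ENSMUSG00000035373, chr11:82045712-82047525, plus strand) are neighbours with 8258 bases between them. Ccl3 (ENSMUSG00000000982, chr11:83647844-83649355, minus strand) and Ccl4 (ENSMUSG00000018930, chr11:83662584-83664683, plus strand) are 13228 bases apart, and Ccl5 (ENSMUSG00000035042, chr11:83525778-83530518, minus strand) lies near them. Ccl20 (ENSMUSG00000026166) is at chr1:83116766-83119167 and Ccl28 (ENSMUSG00000074715) at chr13:119623819-119654359, both on the plus strand.

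The RefSeq promoter table (GRCm38.p6, 250 bases before to 50 bases after each start) held 3 of the 7 members, and only these are shown. Ccl20 and Ccl28 were higher under IL-1β in endocrine cells. Ccl3 was nearly confined to macrophage-like cells, where its level was also highest under IL-1β. Capitals mark matches to a κB-type motif, GGG and CC with any 5 bases between them, searched on both strands. The Ccl20 promoter (chr1:83116516-83116815, plus strand), the Ccl28 promoter (chr13:119623569-119623868, plus strand) and the Ccl3 promoter (chr11:83649329-83649628, minus strand) read as follows, 5′ to 3′.
Ccl20: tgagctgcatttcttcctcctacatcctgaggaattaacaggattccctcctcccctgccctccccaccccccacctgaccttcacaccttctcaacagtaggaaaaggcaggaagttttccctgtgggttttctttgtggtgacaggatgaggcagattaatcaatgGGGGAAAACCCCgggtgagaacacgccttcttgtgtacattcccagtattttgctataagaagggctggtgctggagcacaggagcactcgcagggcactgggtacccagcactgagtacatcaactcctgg
Ccl28: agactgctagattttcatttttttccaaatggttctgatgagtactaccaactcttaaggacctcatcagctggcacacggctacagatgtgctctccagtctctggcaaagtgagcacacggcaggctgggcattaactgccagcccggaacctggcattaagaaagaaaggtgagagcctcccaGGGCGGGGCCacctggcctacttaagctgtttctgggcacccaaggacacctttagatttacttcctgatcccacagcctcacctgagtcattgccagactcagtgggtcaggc
Ccl3: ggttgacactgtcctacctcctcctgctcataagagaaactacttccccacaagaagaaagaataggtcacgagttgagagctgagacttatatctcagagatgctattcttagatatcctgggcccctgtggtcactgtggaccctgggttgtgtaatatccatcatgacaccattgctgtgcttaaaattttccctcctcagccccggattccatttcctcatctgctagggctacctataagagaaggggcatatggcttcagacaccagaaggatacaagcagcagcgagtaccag
The Ccl20 window held a block of 3 overlapping matches over both strands that began 82 bases before the start, the Ccl28 window held 1 match that began 64 bases before the start, and the Ccl3 window held none. Such matches were common, since 51.0% of the 32544 promoters of the table had at least 1. The AP-1-type motif TGANTCA, present in 7.79% of promoters, matched once in the Ccl28 window, 21 bases after the start. The GAS-type motif TTCNNNGAA, present in 8.33% of promoters, matched in none of the 3 windows. A match is a description of the letters and not a binding site.

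Cells were clustered without using condition labels, except that the variable genes were chosen within each library (2000 per library). Clusters were named from marker genes. This gave 4832 β-like, 900 α-like, 549 δ-like and 151 PP-like (pancreatic polypeptide) endocrine cells, and 130 endothelial-like, 104 mesenchymal-like, 133 macrophage-like and 63 ductal-like cells among 7471 kept cells. The rest were 65 acinar-like cells, 446 unnamed cells and 98 cells with insulin and another hormone, 94 of them from the IL-1β library, where they held 310 Ccl2 and 35 Ccl20 UMIs. The markers matched the names: Emcn was detected in 96.9% of endothelial-like cells, Pdgfrb in 71.2% of mesenchymal-like cells, Lyz2 in 95.5% of macrophage-like cells and Krt19 in 93.7% of ductal-like cells, against 0.191%, 0.475%, 0.586% and 1.71% of the other kept cells. Pdgfra, another mesenchymal marker, was found in only 1.92% of the mesenchymal-like cells, in which Rgs5, a pericyte gene, was found in 60.6%. Most endocrine clusters came from 1 library. Different clusters also held most macrophage-like and endothelial-like cells of the untreated and IL-1β libraries (clusters led by Cd36 and Esm1) and of the IFN-γ and combined libraries (clusters led by Fcgr4 and Ly6c1). The minor classes were small, with 20, 36, 27 and 21 mesenchymal-like and 28, 37, 39 and 29 macrophage-like cells in the order untreated, IL-1β, IFN-γ, both, and 16, 17, 23 and 7 ductal-like cells. Levels below are the UMIs of the gene in a class divided by all UMIs of that class, scaled to 1000000 (CPM), and shares are percentages of cells with at least 1 UMI. All intervals are exact 95% intervals (Poisson for levels, binomial for shares, conditional binomial for ratios) and cover counting error only. More cells with a transcript and more transcript per cell both raise a level, so shares are given beside many of the levels.

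Across the kept cells, each member had its own distribution over cell classes. Mesenchymal-like cells held 1065 of the 1184 Ccl7 UMIs. β-like cells held 90.4% of the 2246 Ccl28 UMIs, and macrophage-like cells held 79.7% of the 4377 Ccl5, 89.7% of the 174 Ccl3 and 97.1% of the 138 Ccl4 UMIs. Ccl2, with 23437 UMIs, was spread over most classes, and Ccl20, with 419 UMIs, was highest in δ-like and ductal-like cells.

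**Figure D1:**
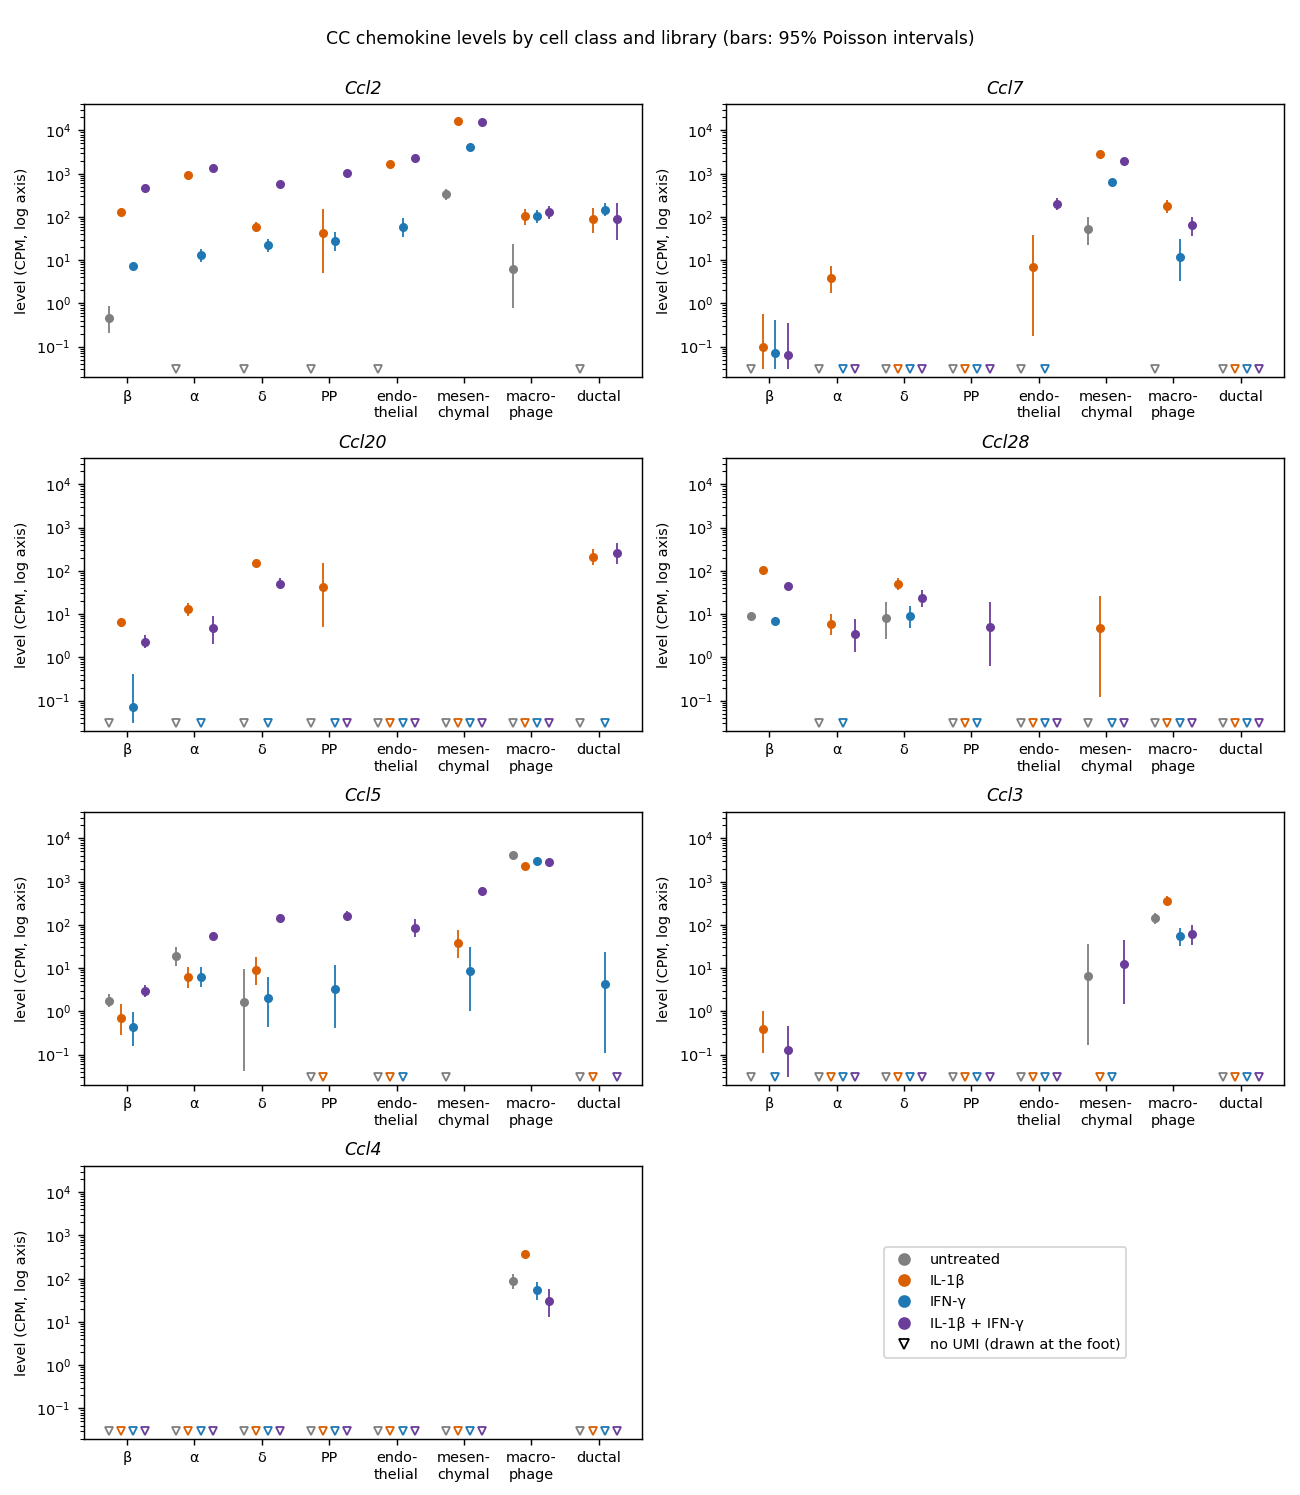
Level of each chemokine (CPM, log axis) in 8 cell classes, with 1 point per library and 95% Poisson intervals; triangles at the foot of a panel mark classes with no UMI, and intervals that reach below 0.03 CPM are not drawn further down. Ccl2 points lie highest in mesenchymal-like cells, Ccl5, Ccl3 and Ccl4 points in macrophage-like cells, and Ccl28 points in β-like and δ-like cells.

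Ccl2, a major attractant of monocytes, was highest in mesenchymal-like cells in every library. Its level there was 334 CPM (250–438) without cytokine, 16828 CPM (16275–17395) under IL-1β, 4153 CPM (3896–4422) under IFN-γ and 15741 CPM (15136–16364) with both, and it was detected in 4 of 20, 32 of 36, 10 of 27 and 18 of 21 cells. The IL-1β and combined libraries were thus far above the untreated library, with the IFN-γ library between them. Without the upper gene limit the IL-1β level was 9959 CPM. With that limit it was 50.4-fold (38.3–67.6) that of untreated cells, and 47.2-fold without it. Of the 7 members 2, Ccl2 and Ccl7, had at least 20 UMIs over both libraries in this comparison. Both were at least 4-fold higher, where 2.11% of all genes tested passed that fold. Both genes also passed it under IFN-γ (3.84% of genes) and, with Ccl5, in the combined library (5.92% of genes). The Ccl2 level in the combined library was 0.935 of that under IL-1β (0.889–0.985), and 1.20 of it when cells with more genes than the upper limit were kept. Under IFN-γ, 299 of the 971 UMIs came from 1 cell, and the level without that cell was 3026 CPM.

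Endocrine cells had little or no Ccl2 without cytokine and different amounts with it. In β-like cells the level was 0.453 CPM (9 UMIs) untreated, 129 CPM (122–136) under IL-1β, 7.39 CPM (6.03–8.97) under IFN-γ and 479 CPM (468–490) with both. In α-like cells it was 0 UMIs untreated, 927 CPM (889–966) under IL-1β, 13.1 CPM (9.01–18.4) under IFN-γ and 1372 CPM (1317–1429) with both. In δ-like cells it was 0 UMIs untreated, 58.8 CPM (43.8–77.3) under IL-1β, 22.1 CPM under IFN-γ, all of it in 1 cell, and 568 CPM (520–620) with both. On these totals, which include the hormone genes, the order of the 3 classes differed between the 2 libraries given IL-1β. It was α-like, β-like, δ-like under IL-1β alone, and α-like, δ-like, β-like with both. Totals without the hormone genes put the β-like level with both above the δ-like level given here. That δ-like level counts the hormone genes, and the δ-like level without them was not set beside it. Shares of cells with a UMI also put β-like above δ-like cells. PP-like cells had 1023 CPM (925–1129) in the combined library, 28.1 CPM under IFN-γ and 0 UMIs untreated, while the IL-1β library held only 10 PP-like cells, with 2 UMIs between them.

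The α-like level was 7.19-fold (6.71–7.71) the β-like level under IL-1β and 2.86-fold (2.73–3.0) with both cytokines. The step from IL-1β to both cytokines was 1.48-fold (1.40–1.57) in α-like cells, 3.72-fold (3.50–3.94) in β-like cells and 9.67-fold (7.24–13.2) in δ-like cells. These intervals do not overlap one another, but they cover counting error only and leave out the variation between cells and between islet preparations. Shares of cells with Ccl2 moved the same way: under IL-1β and then with both, 44.4% and 60.1% of α-like, 16.4% and 40.0% of β-like and 10.2% and 31.0% of δ-like cells had a UMI. Among cells thinned to 4000 UMIs these shares were 38.0% and 55.6%, 12% and 30.8%, and 10.4% and 24.8%. The thinned cells were not the full classes, since thinning alone cannot raise a share as seen in δ-like cells under IL-1β. In untreated cells 0.262% of β-like cells had a Ccl2 UMI, and no UMI was seen in 82 α-like cells, where 3 cells would be 3.66%, a limit on the share of cells with a UMI and not on that of cells expressing the gene.

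Members past 4-fold were set beside all genes, as a description, since the members were chosen with results known. The shares of genes are over those with at least 20 UMIs over both libraries, which not every member reached. In β-like cells 4 of the 7 members had enough UMIs when either library given IL-1β was set against the untreated one. Of these, 3 (Ccl2, Ccl20 and Ccl28) were at least 4-fold higher under IL-1β than untreated, where 4.26% of genes were. The same 3 were so in the combined library, where 4.94% were. Under IFN-γ Ccl2 alone was at least 4-fold higher in β-like cells (1.64% of genes), at 16.3-fold (8.26–36.7), a ratio that rests on 102 and 9 UMIs, 44 of the 102 in 1 cell, and Ccl5 alone was at least 4-fold lower (0.098% of genes), on 6 and 35 UMIs, 13 of the 35 in 1 cell. Between the combined and the IL-1β library the member past 4-fold in β-like cells was Ccl5, on 46 and 7 UMIs, 15 of the 46 in 1 cell (1.09% of genes). Without those cells, at 1.11 CPM untreated and 2.0 CPM with both, neither Ccl5 ratio passed 4-fold, whereas Ccl2 passed it between these libraries, at 4.31-fold, on totals without the hormone genes. The 10 macrophage markers moved the same way in β-like cells, with 72.4 CPM untreated, 48.5 CPM under IL-1β, 47.0 CPM under IFN-γ and 145 CPM under both, and their part in these Ccl5 values was not tested. In α-like cells Ccl2 alone passed that fold under IL-1β (at least 277-fold, taking the untreated count of 0 as 3 UMIs; 2.66% of genes) and with both (at least 411-fold; 3.77% of genes), where Ccl5 missed it on an untreated level of 18.9 CPM that was 1.13 CPM without 1 cell. In δ-like cells Ccl2, Ccl20 and Ccl28 did under IL-1β (2.45% of genes) and Ccl2, Ccl20 and Ccl5 with both (5.09% of genes), while under IFN-γ the only such member, Ccl2, came from 1 cell (1.54% of genes). In PP-like cells Ccl2 and Ccl5 passed 4-fold in the combined against the untreated library (6.15% of genes) and Ccl2 did against the IL-1β library (2.74% of genes).

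**Figure D2:**
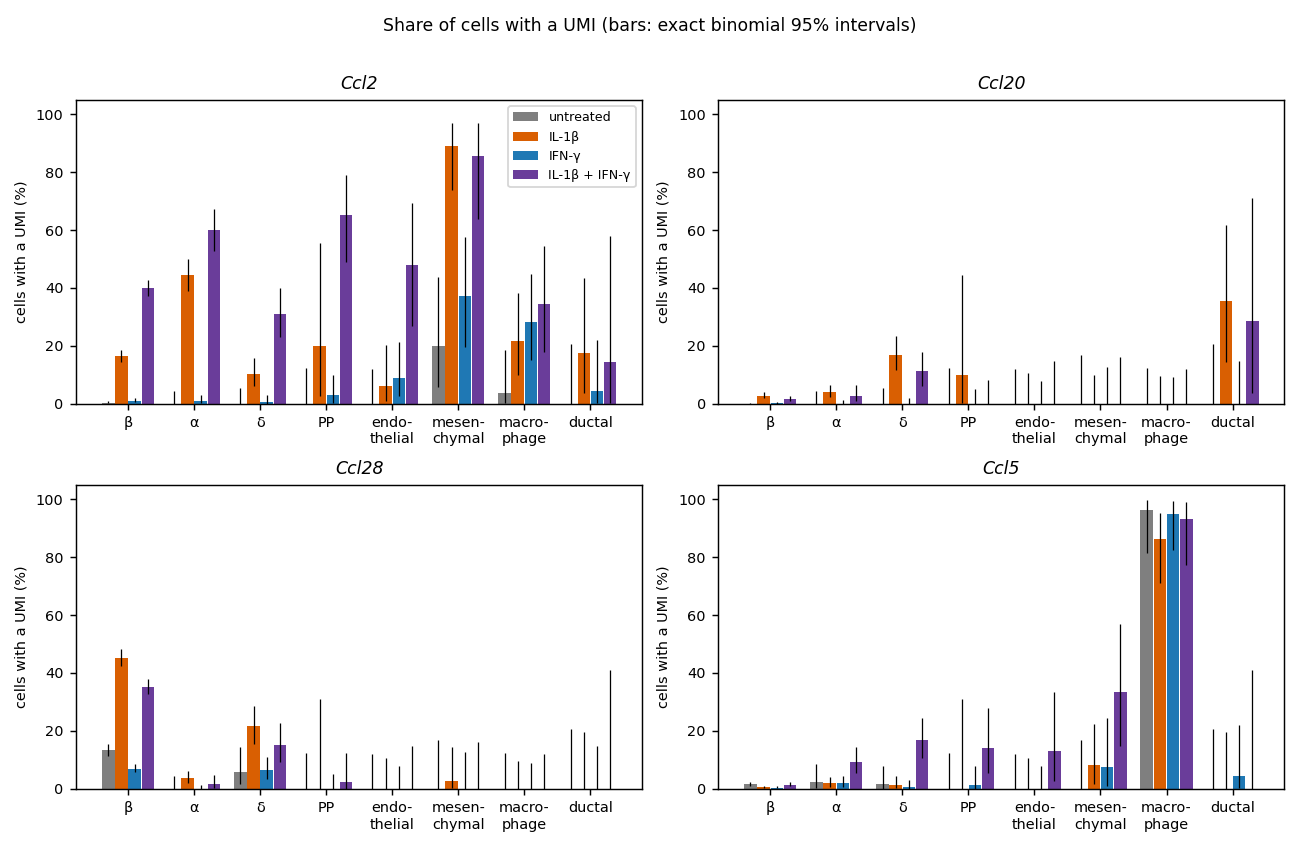
Percentage of cells with at least 1 UMI of Ccl2, Ccl20, Ccl28 and Ccl5 by cell class, with 1 bar per library and exact binomial 95% intervals. With both cytokines the Ccl2 bars run from 14.3% of the 7 ductal-like cells over 31.0% of δ-like, 34.5% of macrophage-like and 40.0% of β-like to 85.7% of mesenchymal-like cells, whereas the Ccl28 bars stand in β-like and δ-like cells and the tallest Ccl5 bars, 86.5% to 96.4%, in macrophage-like cells.

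The class that held the most Ccl2 transcripts differed between libraries. In the IL-1β library 7767 Ccl2 UMIs were counted, of which 45.0% lay in mesenchymal-like cells (1.78% of the cells), 28.4% in α-like and 16.7% in β-like cells. In the combined library 14346 were counted, of which 51.8% lay in β-like, 17.8% in mesenchymal-like (1.16% of the cells) and 16.2% in α-like cells. In the IFN-γ library mesenchymal-like cells held 77.8% of 1248 UMIs, and in the untreated library 68.4% of 76.

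**Figure D3:**
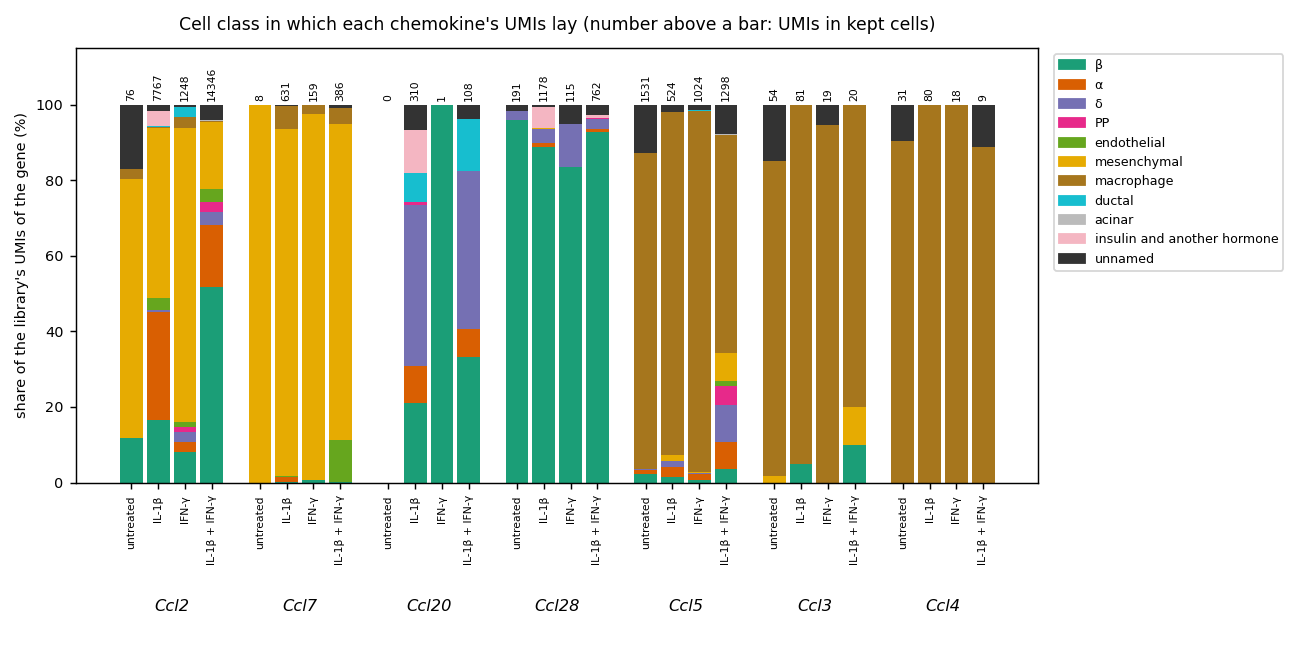
Share of the UMIs of each chemokine (%) that lay in each cell class, 1 stacked bar per library, with the number of UMIs above the bar. The β-like part of the Ccl2 bar is largest in the combined library, at 51.8%, and the macrophage-like part of the Ccl5 bar is smallest there, at 57.7%.

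Single cells carried very unequal amounts of Ccl2. With both cytokines, 15% of β-like, 29.0% of α-like and 85.7% of mesenchymal-like cells had 10 or more UMIs, and 0.710%, 1.64% and 33.3% had 100 or more. The 127 β-like cells with the most Ccl2 held 75.6% of the class's Ccl2 UMIs, and the 19 such α-like cells held 63.2% of theirs. The median over cells with Ccl2 was 6 UMIs in β-like, 8.5 in α-like and 79 in mesenchymal-like cells. In the IL-1β library these medians were 2, 5 and 70.5 UMIs.

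**Figure D4:**
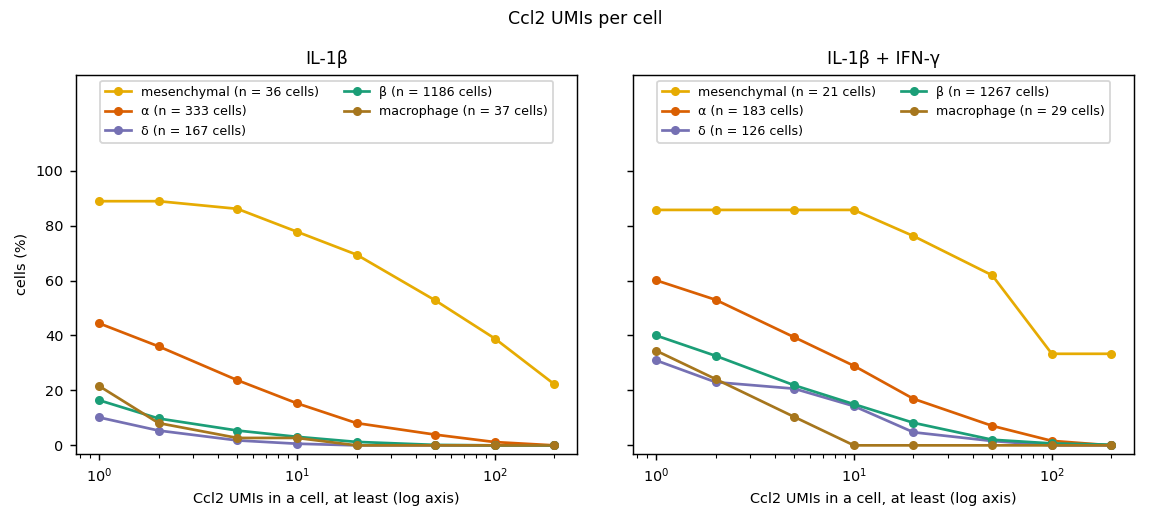
Percentage of cells (vertical axis) with at least the given number of Ccl2 UMIs (log axis) in the IL-1β and the combined library, 1 line per cell class. The mesenchymal-like line stays at 85.7% up to 10 UMIs in the combined library, and the α-like line lies above the β-like line in both.

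Among β-like cells, clusters defined by other genes differed in Ccl2. With both cytokines the largest cluster, led by Nos2 (inducible nitric oxide synthase) and Cd40, had 568 CPM, with Ccl2 in 48.1% of 1003 cells. A cluster led by Tppp3 and S100a4 had 18.4 CPM (12–26.9) in 151 cells, and a cluster led by the heat shock genes Hspa1b and Hspa1a had 11.9 CPM (5.68–21.8) in 86 cells. The cluster led by heat shock genes was also low under IL-1β, at 25.2 CPM (16.9–36.2) against 148 CPM in the main IL-1β cluster. Median depth in the combined library was 9938.5 UMIs in the heat shock cluster and 9266 UMIs in the Tppp3 cluster. Ccl28 followed another order, since the Tppp3 cluster was close to the largest one with both cytokines (44.5 CPM, 34.2–57.0, against 47.7 CPM) while the heat shock cluster was lower (14.2 CPM, 7.35–24.8).

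**Figure D5:**
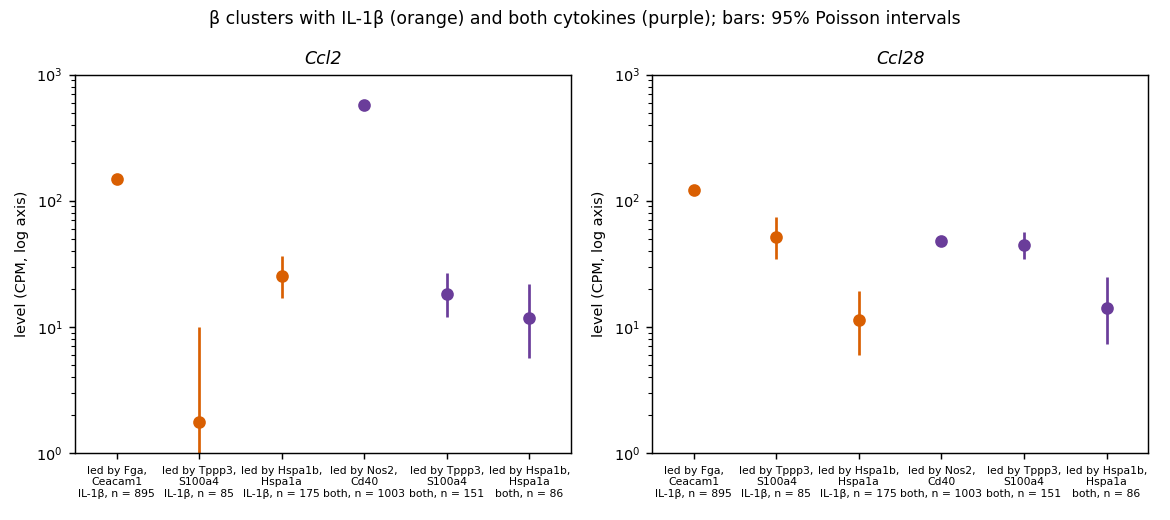
Levels of Ccl2 and Ccl28 (CPM, log axis) with 95% Poisson intervals in 3 clusters of β-like cells in the IL-1β library (orange) and 3 in the combined library (purple). For Ccl2 the largest cluster of each library lies above the other 2; for Ccl28 the Tppp3 cluster lies beside the Nos2 cluster in the combined library.

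RNA set free by broken cells can add UMIs to any droplet, so Ccl2 was set beside the mesenchymal markers, which include the collagens Col1a1, Col1a2 and Col3a1. In the combined library mesenchymal-like cells had 6.81 Ccl2 UMIs for each UMI of the 8 markers, and β-like cells had 1238. Of the 507 β-like cells with Ccl2 there, 3 had any UMI of these markers, and the 8 markers summed to 6 UMIs, with 5 of them at 0. Of the 110 α-like cells with Ccl2, 4 had such a UMI, and of the 39 δ-like cells none had. Under IL-1β the β-like and mesenchymal-like ratios were 129 and 2.56, and under IFN-γ they were much closer, at 2.04 and 0.750. The markers in β-like cells summed to 7 UMIs (0.352 CPM) untreated and 50 UMIs (3.62 CPM) under IFN-γ, and their part in the β-like Ccl2 of that library was not tested.

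Endothelial-like cells differed in this respect. Ccl2 was past 4-fold over untreated cells under IL-1β (0.648% of genes) and, with Ccl7, in the combined library (4.64% of genes), and Ccl7 was also past it between the combined and the IL-1β library (5.08% of genes). That Ccl7 ratio, 29.2, became 0.325 without the upper gene limit, and 1.43 with a 20% mitochondrial limit and with classes assigned cell by cell. The Ccl2 level was 0 UMIs untreated, 1664 CPM under IL-1β, 59.2 CPM under IFN-γ and 2339.9 CPM with both. The ratio of the combined to the IL-1β library, 1.41 (1.20–1.65), became 0.354 without the upper gene limit. In the IL-1β library 233 of the 241 UMIs came from 1 cell, without which the level was 57.6 CPM, less than 4-fold the 15.7 CPM that 3 untreated UMIs would give, and both cells with Ccl2 had 3 or more UMIs of the mesenchymal markers. In the combined library all 11 endothelial-like cells with Ccl2 had 3 or more such UMIs, whereas none of the 12 cells without Ccl2 had as many, so that cells with fewer than 3 held no Ccl2 UMI. The IFN-γ library lacked this split, since 9 of its 12 cells with 3 or more such UMIs had no Ccl2 and 1 of its 4 cells with Ccl2 had fewer than 3. In the untreated library 4 cells had 3 or more and no Ccl2. The 8 markers summed to 567 CPM in these endothelial-like cells and to 2311 CPM in mesenchymal-like cells. The most abundant was Rgs5 in the former and Col3a1 in the latter, and 3 of the 8 were at 0 in the former. The cells with Ccl2 were also deeper, with a median of 12071 UMIs against 5086. With called doublets left out and the cells clustered again, the class had 22 cells in the combined library, and its Ccl2 ratio to the IL-1β library was 1.42.

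Macrophage-like cells had modest Ccl2, at 6.39 CPM (2 UMIs) untreated, 103 CPM (64.9–157) under IL-1β, 103 CPM (71.2–144) under IFN-γ and 132 CPM (91.6–183) with both. The intervals of the 3 treated libraries overlapped. Ccl2 was the only member past 4-fold over untreated cells under IFN-γ (2.38% of genes) and with both (2.83% of genes), on 2 untreated UMIs. All 8 mesenchymal markers were at 0 in the macrophage-like cells of the combined library. Ductal-like cells had 10, 35 and 5 Ccl2 UMIs under IL-1β, IFN-γ and both, and those of the IFN-γ and combined libraries came from 1 cell each (4.33% of genes passed 4-fold under IFN-γ).

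Ccl7, a second monocyte attractant encoded beside Ccl2, was found mainly in the same mesenchymal-like cells. Its level was 51.4 CPM (8 UMIs, all in 1 cell) untreated, 2792 CPM (2569–3029) under IL-1β, 659 CPM (559–771) under IFN-γ and 1991 CPM (1779–2220) with both, in 1 of 20, 19 of 36, 3 of 27 and 13 of 21 cells. Without the upper gene limit the IL-1β level was 1839 CPM. The combined level was 0.713 of that under IL-1β (0.620–0.818). Under IFN-γ 91 of the 154 UMIs were in 1 cell. Each of the 19 cells with Ccl7 in the IL-1β library and each of the 13 in the combined library also had Ccl2.

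Outside mesenchymal-like cells Ccl7 was scarce. β-like cells had no UMI untreated and 1 in each of the other libraries, and α-like cells had 9 UMIs under IL-1β and none otherwise. Macrophage-like cells had 0 UMIs untreated, 179 CPM (126–245) under IL-1β, 12.1 CPM (4 UMIs) under IFN-γ and 63.9 CPM (37.2–102) with both. The IL-1β level in these cells was at least 18.7-fold the untreated one, and 3 members, Ccl2, Ccl7 and Ccl4, passed 4-fold there, against 0.695% of genes. Without the 1 cell with the most UMIs Ccl4 was at 285 CPM under IL-1β, which is less than 4-fold the untreated 89.4 CPM. In endothelial-like cells of the combined library 42 UMIs lay in 7 cells, all of which had 3 or more mesenchymal marker UMIs and Ccl2.

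Ccl20, which attracts Ccr6-bearing lymphocytes and dendritic cells, was seen under IL-1β and hardly without it. No UMI was found in the untreated library and 1 in the IFN-γ library, against 310 under IL-1β and 108 with both. In δ-like cells the level was 152 CPM (127–181) under IL-1β and 51.0 CPM (37.2–68.2) with both, in 16.8% and 11.1% of cells. In β-like cells it was 6.47 CPM (5.0–8.25) and 2.32 CPM (1.63–3.21), and in α-like cells 13.0 CPM (8.85–18.5) and 4.71 CPM (2.03–9.28).

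The combined level was below the IL-1β level in all 3 of these endocrine classes, at 0.335 (0.233–0.473) in δ-like, 0.359 (0.232–0.547) in β-like and 0.362 (0.144–0.804) in α-like cells. The δ-like level was 23.5-fold (17.3–32.2) the β-like level under IL-1β and 22.0-fold (13.8–35.0) with both. δ-like cells made up 8.28% of the IL-1β library and held 42.6% of its Ccl20 UMIs. Ductal-like cells, the epithelium of the pancreatic ducts, had 214 CPM (137–319) under IL-1β, in 6 of 17 cells, and 264 CPM (148–435) with both, in 2 of 7 cells, where 11 of the 15 UMIs were in 1 cell. Their IL-1β level was at least 7.40-fold the untreated one (2.46% of genes passed 4-fold). Without the 1 cell that held 12 of the 24 UMIs it was 114.7 CPM, less than 4-fold the 29.0 CPM that 3 untreated UMIs would give. No Ccl20 UMI was found in endothelial-like, mesenchymal-like or macrophage-like cells in any library.

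Ccl28, a chemokine known from mucosal epithelia, was mostly a β-like transcript and was detected there also without cytokine. The level in β-like cells was 9.21 CPM (7.93–10.7) untreated, 104 CPM (97.9–111) under IL-1β, 6.96 CPM (5.64–8.50) under IFN-γ and 45.6 CPM (42.3–49.1) with both, in 13.4%, 45.3%, 6.97% and 35.3% of cells. After thinning to 4000 UMIs the shares were 3.62%, 28.8%, 3.18% and 15.8%, so that the untreated and IFN-γ libraries lay close together at equal depth. Unlike that of Ccl2, the Ccl28 level with both cytokines was below that under IL-1β, at 0.438 (0.398–0.482).

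In the 2 libraries given IL-1β, δ-like cells had less Ccl28 than β-like cells. Their level was again highest in those libraries, with 8.33 CPM (5 UMIs) untreated, 50.7 CPM (36.9–68.1) under IL-1β, 8.97 CPM (4.78–15.3) under IFN-γ and 23.8 CPM (14.7–36.3) with both. Under IFN-γ the δ-like level was not below the β-like one, and the untreated δ-like level rests on 5 UMIs. In δ-like cells the combined level was 0.469 (0.265–0.805) of the IL-1β level. α-like cells, which had more Ccl2 per UMI than β-like and δ-like cells in both libraries given IL-1β, had almost no Ccl28: 0 UMIs untreated, 14 UMIs under IL-1β, 0 under IFN-γ and 6 with both. The β-like level was 17.7-fold (10.5–32.5) the α-like level under IL-1β and 12.9-fold (5.90–35.3) with both. Transcripts per cell were few, with at most 11 Ccl28 UMIs in any β-like cell.

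Insulin transcripts were a large part of the β-like totals on which these levels rest. Ins1 and Ins2 together made up 41.6% of β-like UMIs untreated, 21.4% under IL-1β, 28.5% under IFN-γ and 33.2% with both. With the hormone genes left out of the totals, Ccl28 in β-like cells was 8.28-fold higher under IL-1β than untreated, against 11.3-fold (9.64–13.3) with them, and Ccl2 with both cytokines was 770.4 CPM in place of 479 CPM.

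Ccl5, a ligand that attracts T cells and macrophages, was abundant in macrophage-like cells in every library. Its level there was 4100.1 CPM (3879–4331) untreated, 2239 CPM (2042–2449) under IL-1β, 2960.0 CPM (2778–3151) under IFN-γ and 2815 CPM (2617–3024) with both, in 96.4%, 86.5%, 94.9% and 93.1% of cells. The untreated library was the highest, though 284 of its 1284 UMIs came from 1 cell, and the level was 3330.2 CPM without it. The IL-1β level was 0.546 (0.491–0.607) of the untreated one.

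In the other named classes with Ccl5 the level was highest in the combined library, except for 1 UMI in ductal-like cells of the IFN-γ library, and except in β-like cells with classes assigned cell by cell, where the combined level was 0.463 of the untreated one. In δ-like cells it had 1 UMI untreated, 8 under IL-1β, 3 under IFN-γ and 129 with both, the last being 146 CPM (122–174) in 16.7% of cells. In PP-like cells it had 0, 0, 2 and 62 UMIs, the last being 160 CPM (123–205) in 6 of 43 cells, and in α-like cells the levels were 18.9 CPM (11.0–30.3), 6.30 CPM (3.53–10.4), 6.34 CPM (3.63–10.3) and 54.8 CPM (44.2–67.1). The combined library was thus the highest in these 3 classes, by 15.8-fold (7.80–37.5) over IL-1β and 70.6-fold (23.6–347) over IFN-γ in δ-like cells. In α-like cells 16 of the 17 untreated UMIs came from 1 cell, and Ccl5 was the member past 4-fold between the combined and the IL-1β library (1.21% of genes). Ccl5 and Ccl2 were at least 4-fold higher with both cytokines than under IL-1β in δ-like cells, where 1.89% of genes were.

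β-like cells had little Ccl5 in any library, with 1.76 CPM untreated, 0.697 CPM under IL-1β, 0.435 CPM under IFN-γ and 2.97 CPM under both. Mesenchymal-like cells had 0, 8, 2 and 98 UMIs, and 81 of the 98 in the combined library were in 1 cell, without which the level was 117 CPM in place of 604 CPM. Ccl5 was past 4-fold over the 38.5 CPM under IL-1β with that cell (4.24% of genes) and not without it. Endothelial-like cells had 18 UMIs in the combined library, 14 of them in 1 cell, and none in the other libraries. Macrophage-like cells held 83.9%, 90.8% and 95.6% of the Ccl5 UMIs of the untreated, IL-1β and IFN-γ libraries and 57.7% of those of the combined library, and unnamed cells held 12.7% of the untreated ones.

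As a reading of free macrophage RNA, Ccl5 was set beside 10 macrophage markers, which include Cd14. In the combined library these summed to 247 UMIs in ductal-like cells, where Cd14 was the most abundant and Lyz2, C1qa, C1qb and C1qc had 0. In α-like cells they summed to 448 UMIs, 71 of them from those 4 genes, and in δ-like cells to 136, with 64 from them. How much of the marker count was free macrophage RNA was not tested. In the combined library macrophage-like cells had 0.120 Ccl5 UMIs per marker UMI, δ-like cells 0.949, PP-like cells 7.75 and α-like cells 0.208, whereas β-like cells had 0.0204, below the macrophage-like ratio. In the untreated, IL-1β and IFN-γ libraries β-like cells had 0.0244, 0.0144 and 0.00925, again below the macrophage-like 0.235, 0.130 and 0.153. The part of free RNA in the β-like Ccl5 was not tested. A marker UMI was found in 47.6% of the 21 δ-like cells with Ccl5 and in 49.5% of those without. Of the 129 δ-like Ccl5 UMIs, 96 lay in cells with fewer than 3 marker UMIs, where the level was 127 CPM. The markers summed to 154 CPM in δ-like and 23421 CPM in macrophage-like cells, and 5 of the 10 were at 0 in δ-like cells. The most abundant marker in δ-like cells was Cd14.

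Ccl3 and Ccl4, the macrophage inflammatory proteins, were found almost only in macrophage-like cells. Ccl3 was at 144 CPM (104.8–192) untreated, 362 CPM (286–453) under IL-1β, 54.4 CPM (32.3–86.0) under IFN-γ and 60.1 CPM (34.4–97.7) with both. Ccl4 was at 89.4 CPM (59.4–129), 376 CPM (298–468), 54.4 CPM (32.3–86.0) and 30.1 CPM (13.0–59.3). Both were highest under IL-1β alone, at 2.52-fold (1.72–3.73) the untreated level for Ccl3 and 4.21-fold (2.71–6.72) for Ccl4.

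The combined library lay far below the IL-1β library for both genes, at 0.166 (0.0904–0.287) for Ccl3 and 0.0799 (0.0334–0.165) for Ccl4. These 2 members were at least 4-fold lower in that comparison, against 0.888% of genes. The share of cells with Ccl3 moved less than its level between these libraries, and under IL-1β it was not above the untreated share. Ccl3 was found in 14 of 28 untreated macrophage-like cells, 16 of 37 under IL-1β, 13 of 39 under IFN-γ and 7 of 29 under both. Of the 16 cells with Ccl3 in the IL-1β library 8 also had Ccl4, and all 16 had Ccl5. Different macrophage-like clusters held most cells of these 2 libraries, as given above, and the class had 37 and 29 cells.

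The other 14 CC ligands of the list were mostly absent or low. Ccl1, Ccl21a and Ccl26 had no UMI in kept cells, and Ccl19 and Ccl24 had 1 each. Macrophage-like cells held 99.5% of the 219 UMIs of Ccl9, which stood at 28.7 CPM untreated, 560 CPM (464–670) under IL-1β, 184 CPM under IFN-γ and 109 CPM with both, highest under IL-1β as Ccl3 and Ccl4 were. Ccl12, a monocyte attractant close to Ccl2, had 61 UMIs in macrophage-like cells under IFN-γ and 58 with both. Ccl11, the eosinophil attractant eotaxin, lay in mesenchymal-like cells, with 26 UMIs under IL-1β, 52 under IFN-γ, of which 35 were in 1 cell, and 1 with both. Ccl25 and Ccl27a, with 945 and 475 UMIs, were low in all classes, with their highest levels over all libraries, 29.4 and 15.7 CPM, in ductal-like cells on 15 and 8 UMIs.

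Transcripts of the 14 receptors and decoys were mostly scarce, and several lay in macrophage-like cells. All 323 Ccr1 UMIs were in that class, at 147 CPM (108–196) untreated, 508 CPM (417–613) under IL-1β, 339 CPM under IFN-γ and 214 CPM with both. Ccr2, the receptor of Ccl2 and Ccl7, had 17 UMIs, all in macrophage-like cells. Ccr6, the receptor of Ccl20, had none in any kept cell, and neither had Ccr4, Ccr8 and Ackr1, while Ccr10, a receptor of Ccl28, had 11. Ackr2, a scavenger of CC chemokines, lay in endothelial-like cells for 94.1% of its 68 UMIs. Ccrl2, an atypical receptor, was also found in endocrine cells, at 3.88 CPM in untreated β-like cells, 20.8 CPM under IL-1β, 16.6 CPM under IFN-γ and 80.7 CPM (76.2–85.3) under both, and at 206 CPM (177–238) in δ-like cells under both.

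Genes of the IL-1β and IFN-γ pathways were counted beside the members. In β-like cells 9 of the 23 genes of the IL-1 and NF-κB list were at least 4-fold higher under IL-1β than untreated (22 had enough UMIs; 4.26% of all genes), with a median ratio of 3.08 against 1.27 over all genes, and 13 of 23 were with both (4.94% of all genes), with a median of 4.70 against 0.993. Under IFN-γ none of the 22 measured genes of this list passed that fold in β-like cells, whereas 6 of the 11 genes of the IFN-γ list did, among them Irf1 and Socs1 (1.64% of all genes). Under IL-1β alone 3 genes of the IFN-γ list also passed it in β-like cells, namely Ifngr2, Socs1 and Socs3. In α-like cells 5 of 19 measured NF-κB list genes (2.66% of all genes) and in δ-like cells 6 of 16 (2.45%) passed 4-fold under IL-1β. In mesenchymal-like cells 3 of 8 did (2.11% of all genes), namely Nfkb1, Relb and Nfkbia, and in macrophage-like cells 1 of 10 did (0.695%), Il1rn, the receptor antagonist.

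Il1r1, the signaling receptor of IL-1β, was at 242 CPM in untreated β-like cells, 260 CPM under IL-1β, 221 CPM under IFN-γ and 94.97 CPM under both, and at 258, 436, 351 and 221 CPM in α-like cells. In δ-like cells it was at 91.6, 91.1, 128 and 41.9 CPM. Mesenchymal-like cells had 18, 13, 9 and 3 UMIs of it, and macrophage-like cells 0, 0, 2 and 0. In these endocrine classes the combined library had the lowest Il1r1 level. Irf1, a transcription factor made in response to IFN-γ, was higher with both cytokines than under IFN-γ alone in β-like (327 against 202 CPM), α-like (519.9 against 255 CPM) and δ-like cells (892 against 298 CPM).

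Genes with the most similar pattern were ranked by Pearson's correlation of log2(CPM + 1) over the 35 groups of 1 class in 1 library with at least 10 cells, among 11069 genes. This is a description, since groups of 1 library share its depth and free RNA. For Ccl2 they were Sod2 (r = 0.85), the mitochondrial superoxide dismutase, Cxcl1 (0.85), a neutrophil attractant, and Stx11 (0.82). For Ccl7 they were Il6 (0.88), Tnfrsf9 (0.82) and Postn (0.82), for Ccl20 Csf3 (0.85), the granulocyte growth factor, Grpel2 (0.73) and Sync (0.72), and for Ccl28 Dgkg, Kcnip1 and Ppp1r42 (0.83 each). For Ccl5 they were Gla, Lat2 and the macrophage gene Mpeg1 (0.82 each). The order depended on the pseudocount: with log2(CPM + 10) Cxcl1 came first for Ccl2 (0.86) and Slc6a14 for Ccl28 (0.90), and at least 1 of the 3 genes changed for each of the 5 members. Among the members themselves the neighbours Ccl3 and Ccl4 had r = 0.94 and the neighbours Ccl2 and Ccl7 had r = 0.66, while Ccl2 and Ccl28 had r = 0.11. Ccl5 had r = 0.77 with Ccl3 and r = 0.74 with Ccl4, both above the value for Ccl2 and Ccl7.

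Within cells of 1 class and library, members overlapped only in part. Under IL-1β, 58.5% (51.2–65.5) of the 195 β-like cells that had Ccl2 also had Ccl28, against 42.7% (39.6–45.8) of those without, and the former were deeper, with medians of 9623 and 8014 UMIs. In the combined library these shares were 38.7% (34.4–43.1) and 33.0% (29.7–36.5), with medians of 12936 and 11464 UMIs. In δ-like cells of the combined library 11 of the 21 cells with Ccl5 (52.4%, 29.8–74.3) also had Ccl2, against 26.7% (18.5–36.2) of those without, with medians of 7089 and 5808 UMIs. The part of depth in these differences was not tested.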

How the data were processed

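The authors deposited filtered Chromium count matrices, 1 per library, holding raw UMI counts per gene and barcode. The matrix headers name Cell Ranger 3.0.0 and the submitters' processing notes give mm10; the sources used here do not give the annotation release and differ on the kit version (v2 in the labels, v3 in the published methods). From 12571 barcodes, those with between 200 and 4000 detected genes and no more than 12% of counts from genes named mt- were kept; any 2 libraries shared 1 to 4 barcodes. Cells were scaled to 10000 UMIs, and variable genes were chosen with scanpy 1.11.5. Chemokine and chemokine receptor genes, genes named mt- and the signaling-list genes were left out of the clustering. Cells were clustered on 30 principal components (igraph 0.11.9, Louvain resolution 0.8, then 1.6 for endocrine and for other cells). Clusters were named from marker lists. The 1.6 was chosen after 0.8 had merged α-like and PP-like cells of the combined library. Doublets were not removed; Scrublet called 0.723% to 1.16% of cells per library, and leaving those out was an alternative. UMIs were summed per class and library, giving CPM with exact 95% intervals. Cells are not replicates, so no condition was tested. A count of 0 was taken as 3 UMIs in ratios, and ratios with both counts at or under 3 were not formed. The background is the share of genes with at least 20 UMIs over both libraries that differed at least 4-fold. The interval and fold steps were checked only on Poisson counts simulated at about the depth of a whole library. That check holds no variation between cells and does not cover the small classes. A few list genes are not reported here. Apart from class markers, genes that lead clusters and the insulin genes, named genes are the 7 members, the 3 most similar genes for each member with at least 200 UMIs, and genes of the ligand, receptor, IL-1 and NF-κB, and IFN-γ lists. The members and lists were chosen with earlier results of these data known.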

Additional observations from a re-analysis of the deposited data

Results flagged for a closer look

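Ccl5 differed in direction between cell classes when the combined library was set against the untreated one. The ratio was 0.687 in macrophage-like cells, 1.68 in β-like, 2.89 in α-like and 87.7 in δ-like cells, and at least 19.8 in PP-like and at least 31.3 in mesenchymal-like cells, the last 2 against an untreated count of 0 taken as 3 UMIs. The β-like ratio became 0.463 with classes assigned cell by cell, and the δ-like ratio 11.4 without the upper gene limit. With 1 library per condition the difference between classes was not tested. The δ-like ratio rests on 1 untreated UMI, 16 of the 17 untreated α-like UMIs were in 1 cell, without which the untreated level was 1.13 CPM in place of 18.9 CPM, 81 of the 98 mesenchymal-like UMIs were in 1 cell, and 284 of the 1284 untreated macrophage-like UMIs were in 1 cell.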

How the results depend on the processing

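No paired analysis was possible because each condition had 1 library. Of the 51 levels, 51 shares and 78 ratios recomputed, 4 ratios turned direction under at least 1 setting. Without the upper gene limit, the ratio of the combined to the IL-1β library became 0.354 for Ccl2 and 0.325 for Ccl7 in endothelial-like cells and 1.20 for Ccl2 in mesenchymal-like cells. The endothelial-like Ccl2 ratio was also 0.869 with a 20% mitochondrial limit and 0.880 with classes assigned cell by cell, where Ccl5 in β-like cells of the combined over the untreated library became 0.463. The causes were not tested. More results moved without turning direction, among them 37 with classes assigned cell by cell, 35 without the cell with the most UMIs and 24 without the upper gene limit. Without the upper gene limit, Ccl2 was 452 CPM in β-like cells with both cytokines and 9959 CPM in mesenchymal-like cells with IL-1β, Ccl7 was 1839 CPM there, and Ccl5 in δ-like cells was 11.4-fold higher with both than untreated. With classes assigned cell by cell, mesenchymal-like Ccl2 and Ccl7 with IL-1β were 15886 and 3259 CPM, δ-like Ccl5 was 100.1 CPM, and macrophage-like Ccl5 was 4643 CPM untreated with an IL-1β ratio of 0.471. Leaving out called doublets gave δ-like Ccl5 202 CPM. Leaving hormone genes out of the totals gave Ccl2 770.4 CPM in β-like and 1726 CPM in α-like cells with both cytokines and 4.31-fold for β-like cells over IL-1β, Ccl20 186 CPM and Ccl28 144 CPM in δ-like and β-like cells with IL-1β, Ccl5 176 CPM in δ-like cells, and 8.28-fold for Ccl28 with IL-1β. Thinning gave 30.8% of β-like cells with Ccl2 in the combined library and 28.8% with Ccl28 in the IL-1β library. Leaving out the 1 cell with the most UMIs, an alternative chosen after seeing the data, gave Ccl2 461 CPM (β-like), 1275 CPM (α-like) and 15628 CPM (mesenchymal-like), Ccl7 2327 CPM, Ccl20 125 CPM, Ccl5 113 CPM (δ-like) and 3330.2 CPM (macrophage-like) and Ccl4 285 CPM. Classes of 7 to 45 cells limit the endothelial-like, mesenchymal-like, macrophage-like and ductal-like values, and a gene seen in 1 cell of such a class has no measured spread.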
